A study of Mus musculus with 16 samples.

Results

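Serotonin receptor genes were described in mouse hippocampus, taken as the rows of the deposited expression table whose symbol was Htr1a, Htr1b, Htr1d, Htr2a, Htr2c, Htr3a, Htr4, Htr5a, Htr5b or Htr7. All 10 were found among the 55359 genes of the table. Total RNA of C57BL/6JNarl mice had been sequenced from non-stressed males, non-stressed females, chronic-stressed males and chronic-stressed females, with 4 libraries for each of these 4 groups. The kind and length of the stress and the age of the mice are not given in the sources used here. The labels give a pool size of 3 for every library of both female groups and of the non-stressed males; in chronic-stressed males it was 2 in libraries 1, 2 and 4 and 1 in library 3. They do not say whether pools shared animals, so p-values measure the spread between these libraries, which may be partly technical.

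Serotonin reaches the hippocampus through axons of the raphe nuclei and acts there on receptors of several families. The type 1 and type 5 receptors couple to the inhibitory G proteins Gi and Go, the type 2 receptors to Gq and phospholipase C, and the type 4 and type 7 receptors to Gs and adenylyl cyclase. The type 3 receptor is a cation channel opened directly by serotonin.

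Per library, 15.2 to 32.5 M counts (M, 1000000) were assigned to genes. The labels name the tissue as brain and the design text as hippocampus, and markers of dentate granule (287 to 419 CPM, counts per M, summed), CA1 (389 to 568 CPM) and CA3 neurons (205 to 266 CPM) were present in every library. Summed markers of thalamus and habenula (102 to 182 CPM) and of neocortex (149 to 195 CPM) were present in every library too. Their correlations with the receptor genes are covered below, and their part in the stress values was not tested. By edgeR at an adjusted p under 0.05, 2 of 9 thalamus and habenula markers were higher with stress and 3 lower in males. In females 2 were higher and 4 lower. Of 6 neocortex markers, 3 were lower in males and 2 in females, and 0 were higher. Of all genes tested, 18.5% were higher and 21.2% lower in males, and 22.1% and 27.3% in females. Stressed and non-stressed libraries differed across much of the transcriptome, and any batch that followed condition cannot be told apart from stress. The mitochondrial light-strand gene mt-Nd6 stood at 1684 ± 264 CPM (SD, n = 4) in non-stressed and 97.9 ± 8.78 CPM in stressed males. In females it stood at 1708 ± 521 CPM without and 83.9 ± 16.1 CPM with stress. Its neighbour mt-Nd5, on the other strand, stood at 5691 ± 373 and 5796 ± 355 CPM in males and at 4112 ± 1723 and 5695 ± 359 CPM in females. Whether both conditions were made and counted alike with regard to strand is not given in the sources used here. If they were not, reads from opposite-strand genes would enter the counts unequally. Of the tested receptor genes, Htr1b, Htr3a, Htr5a and Htr5b have such a gene overlapping or within 5 kb, and its part in their stress values was not tested. Htr1a, Htr2a, Htr2c, Htr4 and Htr7 have none. RNA came from whole tissue, so fewer cells of a type and less RNA per cell cannot be told apart.

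The receptor genes were expressed at low to moderate levels. By FPKM (counts per kilobase of exon and M counts, computed by the authors), Htr2c was highest with 8.61 ± 1.82 over the 16 libraries (SD). It was followed by Htr1a with 6.74 ± 0.681 FPKM and Htr3a with 5.59 ± 0.665 FPKM. Htr7, Htr5b, Htr2a, Htr5a and Htr4 lay between 3.34 and 2.39 FPKM on average, and Htr1b at 1.72 ± 0.300 FPKM. Neighbours in this order overlapped in range over the 16 libraries, except Htr1b and Htr1d. Htr1d, which codes for an autoreceptor of serotonin terminals, was near the limit of detection, with 1 to 14 counts and 0.02 to 0.16 FPKM per library. It did not reach the expression filter and was not tested, so 9 of the 10 genes entered the tests. Summed over all 10 genes, expression was 35.9 ± 2.93 FPKM in non-stressed and 37.6 ± 1.78 FPKM in stressed males. In females the sums were 36.6 ± 0.587 and 37.7 ± 0.687 FPKM.

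**Figure D1:**
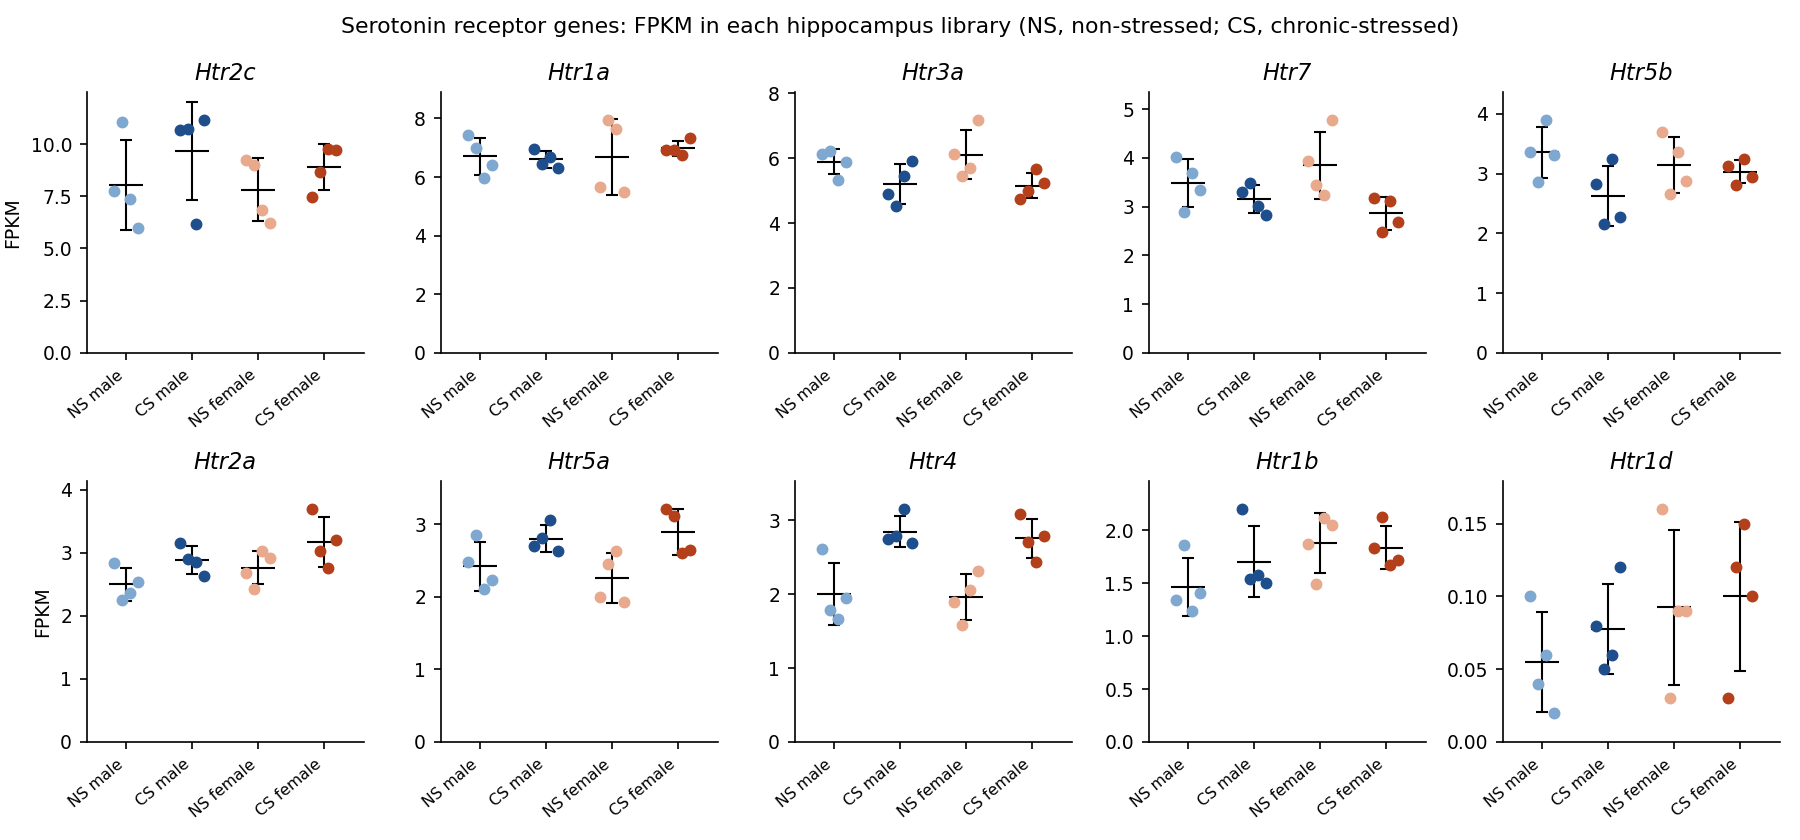
FPKM of the 10 serotonin receptor genes in each library (points), with group mean and SD (bars, n = 4); NS is non-stressed and CS chronic-stressed. Htr4 is higher in all stressed libraries than in the non-stressed libraries of the same sex, and stressed male library 3 stands apart at 6.17 FPKM for Htr2c.

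With stress, Htr4 rose in both sexes, and in females Htr5a rose and Htr7 fell. By edgeR's quasi-likelihood test with Benjamini-Hochberg adjustment over 17569 genes, 1 of the 9 receptor genes passed in males, against 39.7% of all genes tested. It was higher, as were 18.5% of all genes, and 0 were lower, against 21.2%. In females 3 of 9 passed, against 49.3% of all genes. Of these 2 were higher, against 22.1% of all genes, and 1 was lower, against 27.3%. The median log2 fold change of the 9 genes was 0.22 in males and 0.06 in females, beside -0.03 for all genes in either sex. Groups did not overlap in scaled CPM for 1 receptor gene in males, Htr4 (45.0% of all genes, 21.0% higher with stress), and for 2 in females, Htr4 and Htr7 (41.2% of all genes, 19.9% higher and 21.4% lower). Without adjustment, p was under 0.05 for 2 receptor genes in males and 4 in females.

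**Figure D2:**
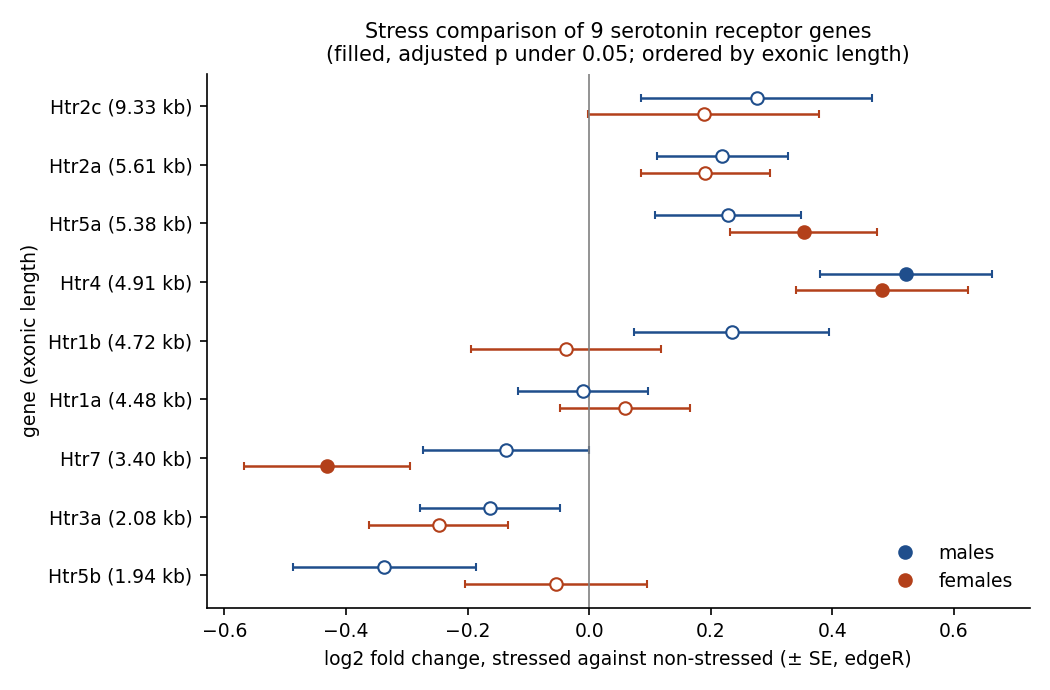
Log2 fold change of stressed against non-stressed libraries (edgeR, ± SE) for 9 serotonin receptor genes, ordered by exonic length and drawn for males and females. Filled points have an adjusted p under 0.05: Htr4 in both sexes, and Htr5a and Htr7 in females.

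Among the Gs-coupled receptors, Htr4 (chromosome 18, 62457275 to 62629648, plus strand, GRCm39) passed in both sexes. Its expression was 2.61, 1.79, 1.67 and 1.95 FPKM in non-stressed male libraries 1 to 4 and 2.74, 2.79, 3.15 and 2.69 FPKM in stressed males. In females it was 1.90, 1.58, 2.05 and 2.32 FPKM without stress and 3.08, 2.71, 2.44 and 2.79 FPKM with stress. Every stressed library thus lay above every non-stressed library of its sex. These values rested on 133 to 503 counts per library. The log2 fold change was 0.52 ± 0.14 (SE) in males (adjusted p = 0.00818, edgeR) and 0.48 ± 0.14 in females (adjusted p = 0.0104, edgeR). No gene on the opposite strand lay within 5 kb of Htr4.

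Htr7, the other Gs-coupled receptor (chromosome 19, 35936134 to 36034907, minus strand), went the other way in females. Its expression was 3.93, 3.44, 3.24 and 4.78 FPKM in non-stressed and 3.18, 2.48, 3.12 and 2.68 FPKM in stressed females. The stressed libraries were all lower, with 3.18 FPKM as their highest value and 3.24 FPKM as the lowest without stress. The log2 fold change was -0.43 ± 0.14 (adjusted p = 0.0158, edgeR). It no longer passed without non-stressed female library 4 (-0.29), without stressed female library 2 (-0.36), after scaling to TPM (-0.16) or with the females fitted alone (adjusted p = 0.0507, edgeR). In males the values were 4.02, 2.89, 3.70 and 3.34 FPKM without and 3.29, 3.49, 3.01 and 2.83 FPKM with stress. Those groups overlapped, with a log2 fold change of -0.14 ± 0.14 (adjusted p = 0.446, edgeR). The summed FPKM of Htr4 and Htr7 was 5.49 ± 0.819 and 6.00 ± 0.334 in males and 5.81 ± 0.924 and 5.62 ± 0.455 in females without and with stress.

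Of the Gi- and Go-coupled receptors, Htr5a passed in females and not in males, and the difference between the sexes did not pass. Htr5a (chromosome 5, 28047147 to 28060086, plus strand) stood at 2.00, 2.46, 2.64 and 1.93 FPKM in non-stressed and 3.21, 3.12, 2.60 and 2.65 FPKM in stressed females. The groups overlapped narrowly, at 2.60 and 2.64 FPKM. Its log2 fold change was 0.35 ± 0.12 (adjusted p = 0.0231, edgeR) and fell short without any of 4 single female libraries, namely non-stressed 1 and 4 and stressed 1 and 2, where it was 0.29 to 0.32, or with the females fitted alone (adjusted p = 0.0566, edgeR). In males it stood at 2.48, 2.86, 2.11 and 2.23 FPKM without and 2.70, 2.81, 3.06 and 2.64 FPKM with stress, a log2 fold change of 0.23 ± 0.12 (adjusted p = 0.141, edgeR). The gene Gm43096 lies 4930 bases away on the opposite strand, without overlap, and did not pass in either sex. Reads within its annotated bounds are thus not counted to Htr5a. Whether counting kept strands apart is not given in the sources used here, so any opposite-strand reads inside Htr5a cannot be told apart from its own.

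The starts of Htr5a and Htr7, the called genes for which RefSeq promoter sequence was at hand and could be shown, differed in base composition. The 250 bases upstream of the start are given 5′ to 3′ on the gene's strand in GRCm38.p6 (not the build of the expression table), with CG dinucleotides in capitals, to show that difference.
Htr5a, chr5:27841697-27841946, plus strand: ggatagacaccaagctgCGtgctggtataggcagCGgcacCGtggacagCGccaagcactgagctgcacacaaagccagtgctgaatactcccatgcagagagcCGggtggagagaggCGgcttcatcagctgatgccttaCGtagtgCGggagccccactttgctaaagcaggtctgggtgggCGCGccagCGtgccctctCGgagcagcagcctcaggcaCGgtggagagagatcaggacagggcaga
Htr7, chr19:36057361-36057610, minus strand: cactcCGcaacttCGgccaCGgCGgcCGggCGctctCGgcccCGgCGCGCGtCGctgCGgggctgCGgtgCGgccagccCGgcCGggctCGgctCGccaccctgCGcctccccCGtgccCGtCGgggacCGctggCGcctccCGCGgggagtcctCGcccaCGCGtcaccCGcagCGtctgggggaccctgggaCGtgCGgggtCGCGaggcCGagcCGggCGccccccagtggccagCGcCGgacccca
The Htr7 sequence held 41 CG dinucleotides and 82% G and C, and 1.09% of 32851 RefSeq promoters of this length held as many. The Htr5a sequence held 13 and 62%, and 31.5% of promoters held as many. The bases just after the start were found in an annotated transcript for Htr7, but in none on either strand for Htr5a. The Htr5a start is therefore less certain. Neither contained the cyclic AMP response element TGACGTCA, the TATA box TATAAA or the GC box GGGCGG on either strand, which occurred in 1.55%, 12.4% and 32.7% of all promoters.

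Htr1a, the main Gi-coupled receptor of hippocampal pyramidal and granule neurons, did not pass in either sex. Its mean was 6.70 ± 0.641 FPKM in non-stressed and 6.60 ± 0.283 FPKM in stressed males. In females it was 6.68 ± 1.29 and 6.98 ± 0.250 FPKM. The wide spread in non-stressed females came from libraries 1 and 4, at 5.67 and 5.48 FPKM, against 7.95 and 7.63 FPKM in libraries 2 and 3. Libraries 1 and 4 stood apart over all tested genes too. Measured against counting error, the mean chi-square per gene was 24.7 to 106 for library pairs that held either. It was 14.2 for libraries 2 and 3, and 3.05 to 16.1 for pairs in the other groups. The female values of Htr7 and Htr5a rest on the same group. The log2 fold change was -0.01 ± 0.11 in males and 0.06 ± 0.11 in females.

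Htr1b, a terminal autoreceptor and heteroreceptor, was the receptor gene with the highest sex difference in non-stressed mice. Males held 1.34, 1.86, 1.24 and 1.41 FPKM and females 1.87, 1.49, 2.12 and 2.05 FPKM, so the groups overlapped. The log2 fold change of females against males was 0.38 ± 0.16, with an adjusted p of 0.651 by edgeR. With stress it changed by 0.23 ± 0.16 in males and -0.04 ± 0.16 in females, and neither passed. Htr1b overlaps the opposite-strand gene D430036J16Rik. Htr5b, which in humans no longer codes for a functional receptor, stood at 3.36 ± 0.426 and 2.62 ± 0.507 FPKM in males without and with stress, a log2 fold change of -0.34 ± 0.15 that did not pass (adjusted p = 0.0845, edgeR). In females it stood at 3.15 ± 0.469 and 3.03 ± 0.193 FPKM. Htr5b overlaps the opposite-strand gene Gm8217, which stood at 0 FPKM in every library. Another opposite-strand gene, Ccdc93, lies 3382 bases from Htr5b, without overlap. It was higher with stress by 0.62 ± 0.11 in males and 0.74 ± 0.11 in females on the log2 scale.

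Neither Gq-coupled receptor passed. Htr2a, an excitatory receptor known best from cortical pyramidal neurons, stood at 2.50 ± 0.258 FPKM in non-stressed and 2.89 ± 0.218 FPKM in stressed males. In females it stood at 2.76 ± 0.265 and 3.17 ± 0.392 FPKM. The log2 fold changes were 0.22 ± 0.11 (adjusted p = 0.115, edgeR) and 0.19 ± 0.11 (adjusted p = 0.146, edgeR).

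Htr2c, the receptor gene with the highest mean FPKM and a hallmark of choroid plexus epithelium, differed widely between libraries of a group. It stood at 7.73, 11.06, 7.38 and 5.99 FPKM in non-stressed males and 10.67, 10.74, 6.17 and 11.16 FPKM in stressed males. In females it stood at 9.22, 8.98, 6.83 and 6.21 FPKM without and 7.45, 8.65, 9.78 and 9.70 FPKM with stress. All groups overlapped, and the log2 fold changes were 0.28 ± 0.19 in males (adjusted p = 0.259, edgeR) and 0.19 ± 0.19 in females (adjusted p = 0.428, edgeR). Without stressed male library 3, the library of pool size 1, the male value was 0.47 and did not pass.

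The level of Htr2c followed that of choroid plexus markers. The summed CPM of 12 such markers, led by the transthyretin gene Ttr, ran from 2681 to 8176 in non-stressed males, 2259 to 6674 in non-stressed females, 1601 to 5962 in stressed males and 1658 to 4852 in stressed females. All 12 reached the expression filter, and 0 passed in either stress comparison by edgeR. Their median log2 fold change was 0.56 in males and 0.34 in females, while that of Ttr was -0.24 and -0.49. With group means removed from the log2 values, Htr2c and the summed markers correlated over 16 libraries (Pearson's r = 0.921, Spearman's rho = 0.909, permutation p = 0.0003 for each, adjusted p = 0.0351 over 117 pairs of receptor gene and marker list). Without the 2 libraries farthest from the median, r was 0.889. No other pair passed after adjustment, those with thalamus and habenula or neocortex markers included.

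Adjustment for choroid plexus content gave unlike answers for Htr2c, depending on the form of the covariate. With the group-centred summed marker level as a covariate, the log2 fold change in males was 0.27 ± 0.09 and passed (adjusted p = 0.0262, edgeR), and that in females was 0.19 ± 0.09 (adjusted p = 0.0838). With the mean log2 level of the 12 markers, not centred, as the covariate, it was 0.08 ± 0.09 in males (adjusted p = 0.53) and 0.09 ± 0.09 in females (adjusted p = 0.429). Both covariates were chosen after seeing the data, and the latter was added when the result of the former was known. The former leaves differences in marker level between groups in place, whereas the latter removes them. They also differ in weighting, since the sum is led by Ttr and the mean gives each marker the same weight. The summed level averaged 4790 CPM in non-stressed and 4267 CPM in stressed males, and 4627 and 3478 CPM in females. Which of these differences moved the Htr2c value was not tested. Htr4 passed in both sexes with either covariate.

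**Figure D3:**
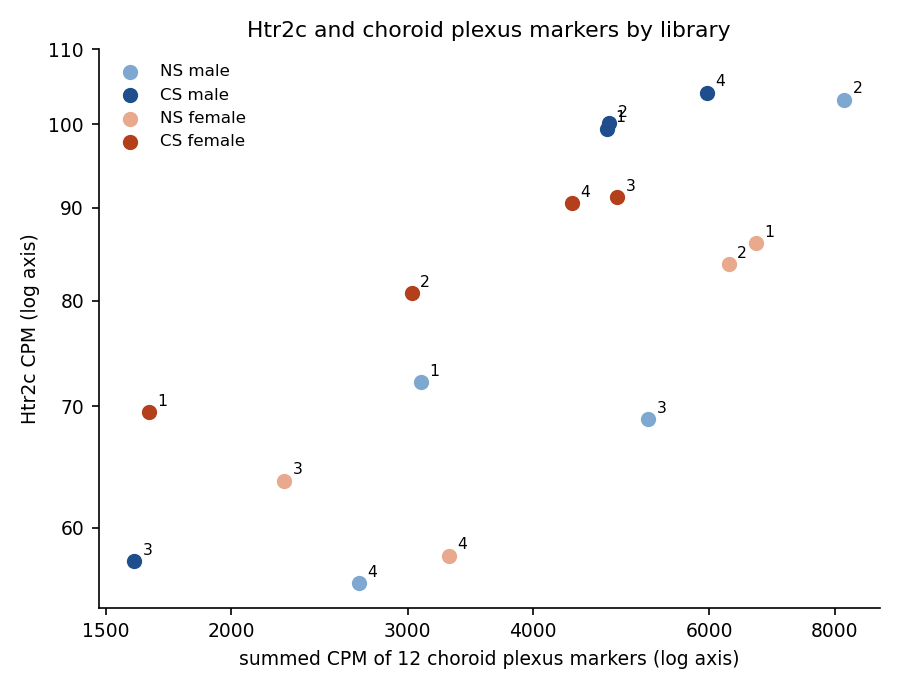
Htr2c CPM against the summed CPM of 12 choroid plexus markers in each of the 16 libraries, both on log axes, with the library number beside each point. Stressed male library 3 is lowest on the marker axis, at 1601 CPM, and stands at 57.5 CPM for Htr2c.

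Htr3a, the channel subunit and a marker of Cck- and Vip-expressing interneurons, had lower means with stress that did not pass. It stood at 6.12, 6.21, 5.34 and 5.89 FPKM in non-stressed and 4.90, 4.52, 5.45 and 5.92 FPKM in stressed males. In females it stood at 6.12, 5.45, 5.70 and 7.18 FPKM without and 4.74, 4.99, 5.67 and 5.23 FPKM with stress. The groups overlapped in both sexes, with log2 fold changes of -0.16 ± 0.12 (adjusted p = 0.273, edgeR) and -0.25 ± 0.11 (adjusted p = 0.0826, edgeR). Of 7 Cck and Vip interneuron markers, 2 fell in males, and in females 4 fell and 1 rose. Of all genes, 21.2% fell in males, and in females 27.3% fell and 22.1% rose. Cck and Calb2, which fell in both sexes, have 1.3 and 1.7 kb of exon. Vip and Npas1, which fell in females, have 3.4 and 3.0 kb, and Adarb2, which rose there, 13.1 kb. Sncg (0.85 kb) and Cnr1 (6.4 kb) passed in neither sex. At 1 to 2 kb, 41.6% of all genes fell in males and 53.0% in females, and at 3 to 4 kb 22.7% and 30.1%. The part of length in the marker values was not tested. The summed markers ran from 599 to 630 CPM in non-stressed and 458 to 491 CPM in stressed males, and from 569 to 905 and 445 to 479 CPM in females. With group means removed, Htr3a and the summed markers correlated over 16 libraries by r = 0.586 (permutation p = 0.0659, adjusted p = 0.447). Spearman's rho was 0.253, and r was 0.249 without the 2 libraries farthest from the median. The part of these markers in the stress values of Htr3a was not tested. Htr3a overlaps the opposite-strand gene Gm32335.

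The stress response of the receptor genes did not differ detectably between the sexes. For the interaction, female minus male effect, 0 of 9 receptor genes and 0% of all genes passed by edgeR. Without adjustment, p was under 0.05 for 0 receptor genes and for 374 genes in all. The values ran from -0.29 ± 0.19 for Htr7 to 0.28 ± 0.21 for Htr5b. Females against males, 0 of 9 passed in non-stressed mice (0.0455% of all genes), where log2 fold changes ran from -0.09 for Htr5b to 0.38 for Htr1b, the 1 receptor gene with an unadjusted p under 0.05. In stressed mice 0 of 9 passed (0.0398% of all genes), with values from -0.14 for Htr7 to 0.19 for Htr5b and 0 at an unadjusted p under 0.05.

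The direction of change moved with exonic length. Htr5b, Htr3a and Htr7, the shortest of the tested receptor genes at 1.94, 2.08 and 3.40 kb, had negative values in both sexes, and Htr4, Htr5a, Htr2a and Htr2c, the longest at 4.91 to 9.33 kb, had positive values in both. After scaling to TPM the values of Htr7 in males, Htr5b in females and Htr3a in both sexes turned positive. That scaling moved the median of all genes to 0.19 in males and 0.22 in females, so these changes of sign are no measure of length. Across all genes the median log2 fold change was -0.38 in males and -0.49 in females at 1 to 2 kb, and 0.25 and 0.28 above 6 kb. With a trend on length and GC content removed, Htr4 still rose, by 0.51 in males (adjusted p = 0.00947, edgeR) and 0.46 in females (adjusted p = 0.0139, edgeR). Htr5a and Htr7 in females then fell short, at 0.27 (adjusted p = 0.0608, edgeR) and -0.34 (adjusted p = 0.0534, edgeR). Htr3a and Htr5b changed sign in both sexes, without passing.

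Genes of serotonin synthesis, storage and breakdown were considered next, from a list of 20 of which 13 were expressed enough to be tested. In males 2 rose and 3 fell, together 38.5% of those tested against 39.7% of all genes. In females 2 rose and 4 fell, together 46.2% against 49.3% of all genes, so both shares were near the background. The medians were -0.04 and -0.05, beside -0.03 for all genes in either sex. After scaling to TPM the medians were 0.19 and 0.20, beside 0.19 and 0.22 for all genes. With TPM 3 were higher and 1 lower in males, and 5 higher and 4 lower in females. Of all genes called with TPM, 75.3% were higher in males and 73.8% in females. Slc18a2, the vesicular monoamine transporter, changed by -1.49 ± 0.22 in males and -1.39 ± 0.22 in females on the log2 scale. S100a10, an adaptor that binds Htr1b and Htr4 proteins, fell by 0.69 and 0.98, and Pts, of tetrahydrobiopterin synthesis, by 0.39 and 0.52. Qdpr, which recycles tetrahydrobiopterin, fell by 0.69 in females and had a value of -0.31 in males. The RNA-editing enzymes Adar and Adarb1, which edit the Htr2c transcript, rose by 0.90 and 0.46 in males and 1.09 and 0.35 in females. In exonic length, S100a10, Qdpr, Slc18a2 and Pts have 1.2, 1.8, 5.2 and 6.1 kb, and Adar and Adarb1 8.1 and 11.3 kb. At 1 to 2 kb, 41.6% of all genes fell in males and 53.0% in females. Above 6 kb, 44.0% rose and 4.82% fell in males, and 50.1% and 7.57% in females. The part of length in these values was not tested. Slc18a2, Pts, Qdpr and Adar have an opposite-strand gene overlapping or within 5 kb, and S100a10 and Adarb1 have none. Among all genes tested, 66.3% have one, and its part in these values was not tested. The receptors Htr1f and Htr6, the synthesis genes Tph2 and Ddc, the oxidases Maoa and Maob and the transporter Slc29a4 passed in neither sex. The serotonin transporter gene Slc6a4, Tph1, Fev, Gch1, Slc22a3, Htr2b and Htr3b did not reach the filter. Raphe neuron markers summed to at most 2.54 CPM in any library.

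Downstream of the receptors, 11 of 24 genes for G proteins and effectors rose and 2 fell in each sex, together 54.2% of the list against 39.7% of all genes in males and 49.3% in females. The medians were 0.18 in males and 0.24 in females, beside -0.03 for all genes. Of all genes, 18.5% rose and 21.2% fell in males, and 22.1% and 27.3% in females. Of genes with 6 kb of exon or more, 44.0% rose and 4.82% fell in males, and 50.1% and 7.57% in females. Gnas, the Gs subunit that couples Htr4 and Htr7, rose by 1.08 ± 0.10 in males and 1.22 ± 0.10 in females on the log2 scale. Its olfactory-type relative Gnal rose by 0.54 ± 0.10 and 0.57 ± 0.10. The calcium-stimulated adenylyl cyclase Adcy1 rose by 1.11 ± 0.18 and 1.09 ± 0.18, and Kcnj6, a potassium channel subunit opened by Gi-coupled receptors, 3.05-fold and 2.83-fold. Gnai1, a Gi subunit, fell by 0.32 ± 0.10 in males and 0.49 ± 0.10 in females on the log2 scale. All these values passed in both sexes. In exonic length, Gnas, Gnal, Adcy1, Kcnj6 and Gnai1 have 11.4, 11.2, 12.5, 7.6 and 3.1 kb. Each of them has an opposite-strand gene overlapping or within 5 kb, as do 66.3% of all genes tested. The part of such genes in these values was not tested. With the length and GC trend removed, 9 rose and 2 fell in males, and 11 rose and 4 fell in females. The medians were then 0.07 and 0.15, beside 0.01 and -0.02 for all genes. Of all genes called in that fit, 50.4% were higher in males and 44.8% in females. After scaling to TPM, 15 rose and 0 fell in males, and 17 rose and 1 fell in females. The medians were 0.41 and 0.50, but TPM moved those of all genes to 0.19 and 0.22. Of all genes called with TPM, 75.3% were higher in males and 73.8% in females.

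**Figure D4:**
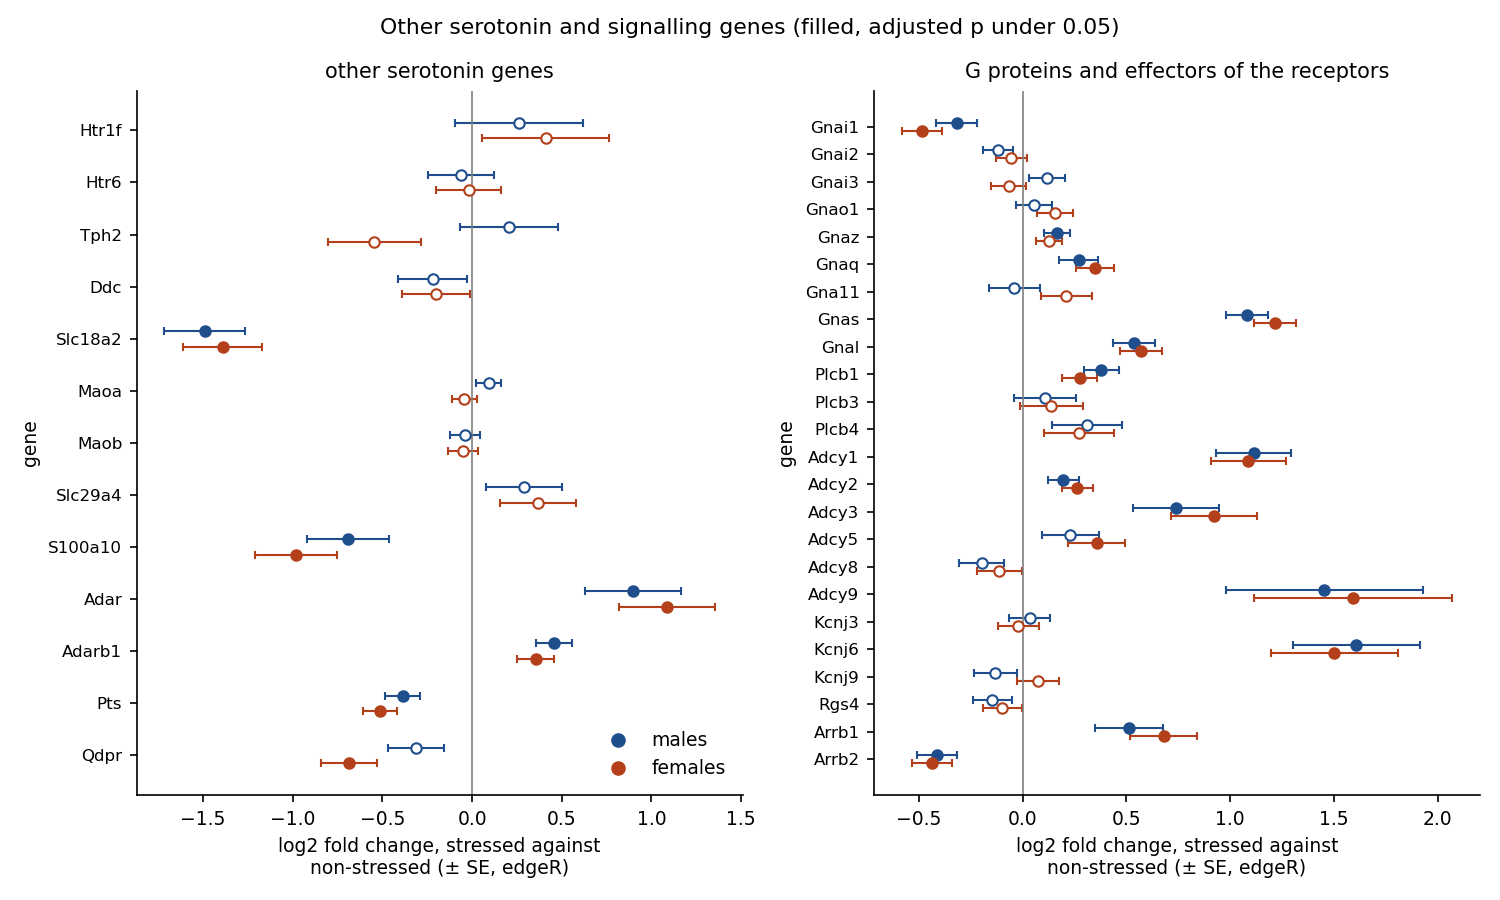
Log2 fold change of stressed against non-stressed libraries (edgeR, ± SE) for 13 other serotonin genes and 24 G protein and effector genes, in males and females. Filled points have an adjusted p under 0.05; Slc18a2 lies lowest, at -1.49 in males and -1.39 in females, and Kcnj6 rises 3.05-fold and 2.83-fold on the linear scale.

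Genes most alike to each receptor gene were sought by Pearson's r over the 16 libraries after group means were removed, as a description. For Htr4 they were Stau2 (r = 0.95) and Abi1 (r = 0.94). For Htr2c they were Gm44250 (r = 0.96) and Stk39 (r = 0.95), for Htr7 Zfp874b (r = 0.93) and Akr1c18 (r = 0.90), and for Htr2a Ptcd3 and Pnn (r = 0.92 for each). For Htr1a they were Gm49863 (r = 0.92) and Med14 (r = 0.90), which fell to 0.66 and 0.64 without non-stressed female libraries 1 and 4. For Htr3a they were Ctdnep1 and Ak4 (r = 0.88 for each), and for Htr5a Socs2 (r = 0.86) and Lrrc4c (r = 0.83). For Htr1b they were C330013E15Rik and Lyar (r = 0.82 for each), and for Htr5b Ube2z and Alkal2 (r = 0.76 for each). These libraries share depth and composition, so the values are no measure of common control.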

How the data were processed

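RNA was sequenced from 16 libraries. Per the submitters' processing notes, HISAT2 2.0.1, HTSeq 0.6.1 and GRCm39 were used; strand setting and annotation release are not given in the sources used here. The deposited table holds raw counts (whole numbers), and FPKM values by the authors, which recomputation from the counts matched within 0.005. The counts were tested by quasi-likelihood in edgeR 4.0.16 (R 4.3.3), with TMM scaling and 4 group means fitted to all libraries. The 17569 genes that reached 0.5 FPKM in 4 or more libraries were tested, with Benjamini-Hochberg adjustment and a threshold of 0.05. Totals of 15.2 to 32.5 M counts (M, 1000000) limit precision for the lowest genes. Alternatives used DESeq2 1.42.0, limma 3.58.1 on log2 FPKM, other scalings, filters and fits, and each library left out. Correlations used 100000 permutations within groups.

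The receptor genes, lists and alternatives were chosen with earlier results of these data known. Named were all receptor genes, tested genes of the serotonin list, up to 4 effectors by smallest p per comparison, opposite-strand neighbours and the 2 genes most alike. Added after seeing the data were the fit on genes without opposite-strand neighbours with the length and GC trend removed, and both choroid plexus covariates. The group-centred sum was run before the uncentred mean, and both are reported because they differ for Htr2c. Promoters are from RefSeq (GRCm38.p6). Figures used matplotlib 3.10.9.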

Additional observations from a re-analysis of the deposited data

Results flagged for a closer look

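Of 40 sets of 4 libraries, 1 for each receptor gene and group, 3 held a library far from the other libraries of its group, where chance gives about 1 in 20. All 3 were in chronic-stressed males, in CPM scaled by TMM. Htr1b stood at 10.4 in library 1, against 7.17 to 7.65 in the others. Htr2c stood at 59.1 in library 3, against 99.3 to 105. Htr4 stood at 15.9 in library 3, against 13.4 to 13.6.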

How the results depend on the processing

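Htr4 passed in both sexes under every alternative run, with log2 fold changes of 0.36 to 0.72 in males and 0.35 to 0.70 in females. The 1 receptor gene called in males became 2 with limma on log2 FPKM at each pseudocount (0.1, 0.5 and 1), with non-stressed female libraries 1 and 4 left out, and under either choroid plexus covariate, where the added gene was Htr2c with the group-centred sum and Htr2a with the uncentred mean. It became 4 with TPM and 3 with the compared groups alone. The 3 called in females became 1 with the compared groups alone and with the same 2 libraries left out. They also became 1 after removal of the length and GC trend, on all genes or on those lacking opposite-strand neighbours (5 kb). Htr5a has such a neighbour, so it was not tested in the latter fit and could not pass there. With single libraries left out, the counts were 1 to 2 in males (2 without stressed male library 3) and 1 to 4 in females (1 without non-stressed female library 4 or stressed female library 2). The interaction and sex counts stayed at 0.

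With the replicate number as a block, the count was 2 in males, adding Htr5b at -0.35. Same-numbered libraries correlated by -0.23 to 0.17, so the numbers were not taken as pairs.

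Values near 0 changed sign. Htr1a in males was 0.010 with DESeq2 and with a filter on mean FPKM of 1, 0.0099 with median-ratio scaling, 0.014 on genes without opposite-strand neighbours, 0.023 with filterByExpr, 0.021 with the compared groups alone and without both non-stressed female libraries, 0.029 with no filter and 0.22 with TPM, and -0.061 to 0.038 with single libraries left out. With TPM, Htr3a was 0.054 and Htr7 0.10 in males, and Htr1b 0.20, Htr3a 0.0090 and Htr5b 0.19 in females. With the length and GC trend removed, Htr3a was 0.15 and Htr5b 0.0044 in males, and Htr2c -0.038 (-0.00325 without opposite-strand neighbours), Htr3a 0.054 and Htr5b 0.26 in females. Without non-stressed female libraries 1 and 4, female values were -0.13 for Htr1a, 0.050 for Htr1b and 0.038 for Htr5b. Htr1b in females was 0.0075 with no filter. With single libraries left out, female values were -0.016 to 0.17 for Htr1a, -0.14 to 0.067 for Htr1b and -0.13 to 0.022 for Htr5b. The causes were not tested, but TPM moved the median of all genes to 0.19 in males and 0.22 in females.

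Over all genes, calls on those lacking opposite-strand neighbours numbered 2110 in males and 2650 in females, and 1726 and 2148 with the trend also removed, against 6976 and 8668, with fewer genes tested. Females without non-stressed libraries 1 and 4 gave 5594. Calls rose from 8 to 15 between the sexes of non-stressed mice with DESeq2 and to 16 without those libraries, and from 7 to 11 in stressed mice with DESeq2 or the compared groups alone. The interaction gave 1 with limma at a pseudocount of 0.1 or TPM.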
